A study of Homo sapiens with 6 samples.

Results

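The mitotic genes described here are 52 genes for the kinases, checkpoint proteins, kinetochore parts, motors and chromosome proteins that carry a cell through division, together with FOXM1 and MYBL2, transcription factors that activate such genes. They were chosen by function and matched by symbol to the 58302 Ensembl genes of the count files. All 52 were found, all 52 were among the 15075 genes that passed the filter on low counts, and each had at least 176 counts in every library. The libraries are bulk RNA-seq of cells labelled MDA-MB231, an established breast cancer line, in 2 groups of 3 repeats. The control group carried a control shRNA and the other group carried Smyca shRNA #1, each expressed stably, with no other agent or treatment named in the labels. Smyca is a long noncoding RNA, and its knockdown rests on 1 shRNA sequence in these files. Whether the repeats came from 1 infected pool, and whether the cells were synchronised, is not given in the sources used here. In the text, a log2 fold change is the knockdown relative to the control, so a positive value is higher in the knockdown.

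Entry into mitosis is driven by CDK1 bound to cyclin B, after CDC25 phosphatases remove the inhibitory phosphates from CDK1. PLK1 and the aurora kinases then build the spindle, condensin packs the chromosomes, and kinetochores assembled on CENPA attach each chromosome to microtubules. Until all are attached, the spindle checkpoint holds back the ubiquitin ligase APC/C, which later destroys securin and cyclin B and thus frees separase to split the sister chromatids. Most of these genes are transcribed in late S, G2 and M phase by the MuvB complex with MYBL2 and FOXM1, so their RNA in a bulk sample depends on how many cells are in those phases. Fewer mitotic cells and less RNA per cell cannot be told apart in bulk samples.

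Many promoters of the group share short motifs, which are shown here as letters common in cell-cycle genes and do not assign each gene to a class. The window ran from 250 bases before to 50 bases after the start of the gene in RefSeq, build GRCh38.p14, and 45 of the 52 genes had an entry, with AURKA, TTK, BUB3, BIRC5, UBE2C, TPX2 and FOXM1 missing. The motifs searched on both strands were the cell-cycle homology region (CHR, TTTGAA, bound by MuvB), the NF-Y box CCAAT and an E2F site TTTNNCGC, each counted on its own so that matches may overlap. In the 160 bases before the start of CCNB2, PLK1, CCNB1, CDC25A and PCNA, printed 5′ to 3′ along the strand of each gene, capitals mark these motifs on either strand. CCNB2 (chr15:59104986-59105145, plus strand) and PLK1 (chr16:23678729-23678888, plus strand) hold the CHR letters close to the start, and CDC25A (chr3:48188418-48188577, minus strand) holds an E2F site. CCNB1 (chr5:69166990-69167149, plus strand) holds NF-Y boxes but neither TTTGAA nor TTTNNCGC. Other spellings of the CHR were not searched, so a promoter without TTTGAA may still hold one. PCNA (chr20:5126623-5126782, minus strand) is shown as a replication gene for contrast.
CCNB2: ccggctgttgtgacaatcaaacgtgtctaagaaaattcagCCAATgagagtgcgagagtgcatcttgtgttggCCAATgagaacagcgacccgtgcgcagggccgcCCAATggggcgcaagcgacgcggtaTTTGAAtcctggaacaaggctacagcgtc
PLK1: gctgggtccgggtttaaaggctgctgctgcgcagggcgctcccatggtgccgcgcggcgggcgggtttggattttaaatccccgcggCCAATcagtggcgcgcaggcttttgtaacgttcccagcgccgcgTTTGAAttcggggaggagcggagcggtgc
CCNB1: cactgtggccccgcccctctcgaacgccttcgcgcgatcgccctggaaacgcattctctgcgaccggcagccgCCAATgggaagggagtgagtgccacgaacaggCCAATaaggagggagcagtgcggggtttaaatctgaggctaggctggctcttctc
CDC25A: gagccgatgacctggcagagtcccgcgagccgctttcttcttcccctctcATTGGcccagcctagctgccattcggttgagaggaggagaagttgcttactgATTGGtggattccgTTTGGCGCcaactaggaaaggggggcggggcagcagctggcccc
PCNA: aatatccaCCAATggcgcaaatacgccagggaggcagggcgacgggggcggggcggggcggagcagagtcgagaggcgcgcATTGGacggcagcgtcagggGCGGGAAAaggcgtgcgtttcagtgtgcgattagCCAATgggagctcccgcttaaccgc

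The CHR letters were found in 31 of the 45 mitotic promoters (68.9%), against 9.48% of the 10964 promoters of genes tested and 15.4% of all 27305 promoters in the table. An NF-Y box was found in 33 of the 45 (73.3%), against 36.1% and 35.7%. The E2F letters were found in 5 of the 45 (11.1%), those of CDK1, CDC25A, ESPL1, CENPA and NCAPG, against 10.3% and 6.9%. In 16 replication genes with an entry the order of the CHR and the E2F letters was the other way round, with the CHR in 1 promoter (6.25%) and the E2F letters in 11 (68.8%). The NF-Y box did not set these genes apart so clearly, with a match in 10 of the 16 (62.5%). No match to any of these motifs was found for CDC25B, CDC25C, CENPE, KIF2C and MYBL2. A match is a description of these letters and says nothing about binding in these cells.

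The libraries held between 14999307 and 16501085 counts, of which the 52 genes took between 0.491% and 0.630%. Smyca, counted as MIR23AHG, had 25.0, 19.5 and 22.0 normalized CPM (read counts scaled by library size) in controls 1 to 3 and 10.5, 6.97 and 5.61 in knockdowns 1 to 3, a log2 fold change of -1.53 ± 0.26 (SE, adjusted p = 0.111 by the quasi-likelihood test of edgeR, Benjamini-Hochberg over all genes tested), so the groups did not overlap. MDA-MB-231 is known as a mesenchymal line, and the markers went partly against that label. Of 7 mesenchymal and basal markers, VIM lay between 71.2 and 305 CPM, MSN, CAV1, AXL, CD44 and ZEB1 each had at least 98 counts in every library, and SPARC had at most 11. The 6 that passed the filter on low counts were all lower in the knockdown, 4 at an unadjusted p under 0.05, with a median log2 fold change of -0.82. Without control repeat 1, 2 of the 6 were higher and 2 passed, and 2 passed without knockdown repeat 1 or 2, with 1 higher in each. With the replicate number as a block, or with reads recovered from the FPKM column of control repeat 2 in place of its counts, 1 was higher and 3 passed. Their part in the values of the mitotic genes was not tested. The epithelial genes KRT8 and EPCAM lay between 4249 and 7408 CPM and between 236 and 336 CPM, and CDH1, or E-cadherin, between 71.5 and 300 CPM. The gut and liver genes HNF4A and VIL1 lay between 65.4 and 194 CPM and between 220 and 501 CPM, while CDX1, APOB and AFP had 0 counts and ALB at most 4. In control repeat 2 the deposited FPKM column did not follow the count column of the same file: 4.01% of 17247 genes were within 2% of each other after scaling, against 100% in the other 5 libraries, and 3357 genes had 0 counts but an FPKM above 0. Whole reads recovered from that FPKM column correlated with the counts of control repeat 3 at r = 0.993 and with the counts of control repeat 2 at r = 0.952, on the log2 scale across 15068 genes, which are not independent replicates. The main results rest on the count columns, and those with the recovered reads are given after them.

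None of the 52 genes met the criteria for a differentially expressed gene (DEG), which asked for a control over knockdown ratio of 1.5 or more, or 0.66 or less, with an edgeR adjusted p under 0.05. The adjusted p-values ran from 0.129 for FOXM1 to 0.993 for DLGAP5, and 4 of the 15075 genes tested were DEGs (0.0265%). That background rested on control repeat 3, without which 1628 of 15449 genes (10.5%) were DEGs and 1 of the 52, FOXM1, was. DESeq2 on the same counts called 2 of the 52, FOXM1 (adjusted p = 0.0230) and CCNB1 (adjusted p = 0.0355), and 836 genes in all. At an unadjusted p under 0.05, edgeR gave 6 of the 52 (11.5%), against 19.2% of all genes tested. CCNB1, CDC25A, SMC2, FOXM1 and MYBL2 were the 5 higher in the knockdown, a direction in which 8.74% of all genes passed, and UBE2C was the 1 lower, a direction in which 10.4% passed. Shares this close to the background, or under it, are no result about the mitotic genes as a group.

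In the count columns, the size of any difference was limited for most of them. The 95% interval of the log2 fold change lay within a doubling or a halving for 48 of the 52 genes (92.3%), all but CCNB1, CDC25A, FOXM1 and MYBL2, against 59.0% of all genes tested. The 59.0% is not matched for expression: the median SE was 0.193 for the 52 genes and 0.237 for all genes. It was 0.185 for the 8542 genes in the same range of mean CPM. These intervals were not computed with the reads recovered for control repeat 2 or with a library left out. The median log2 fold change was 0.09, with quartiles of -0.07 and 0.30 and a range from -0.47 for UBE2C to 0.78 for CCNB1. The median of all genes tested was -0.04, and that of the 8542 genes in the same range of mean CPM (12.6 to 352) was 0.06. A positive value was found for 36 of the 52 (69.2%), against 46.6% of all genes and 56.6% of those in the same range, but for 26 of the 52 when libraries were scaled by total counts alone.

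**Figure D1:**
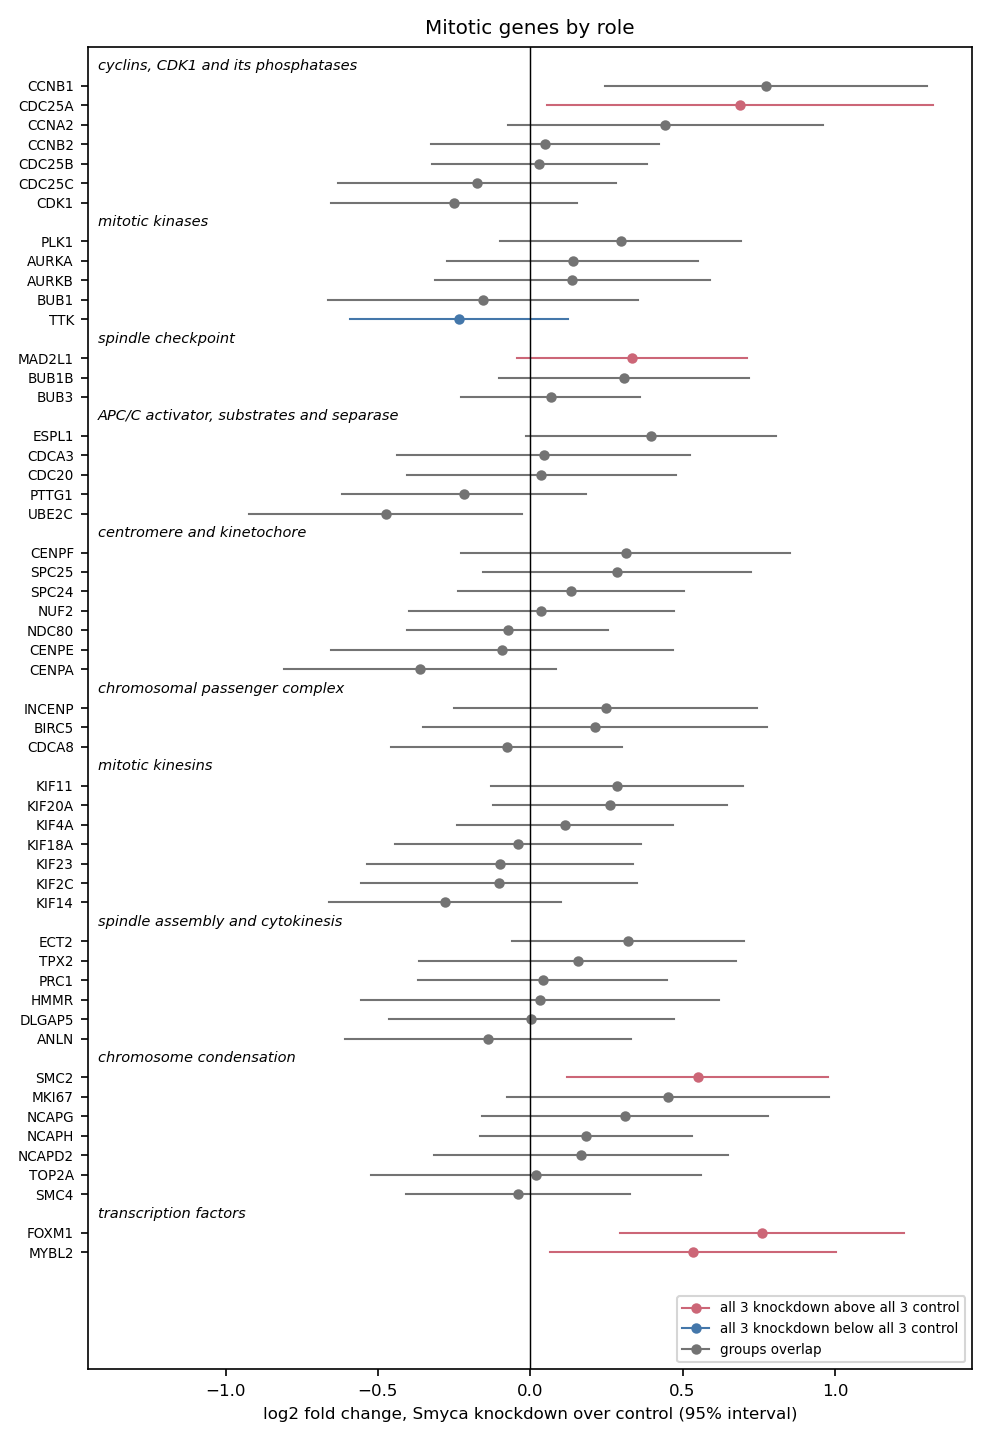
Log2 fold change (x axis, knockdown over control) of each of the 52 mitotic genes by role, as points with 95% intervals from edgeR. The intervals of all genes but CCNB1, CDC25A, UBE2C, SMC2, FOXM1 and MYBL2 hold 0, red marks the 5 genes with all knockdown libraries above all control libraries, and blue marks TTK, with all below, under TMM scaling (1 above and 3 below under total counts).

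FOXM1 and MYBL2 were the 2 transcription factors of the list, and both were higher in every knockdown library than in any control library. FOXM1, a forkhead factor that activates G2/M genes (chr12:2857680-2877174, minus strand, GENCODE v44 on GRCh38), had 60.7, 70.0 and 78.6 CPM in controls 1 to 3 and 85.9, 137 and 132 CPM in knockdowns 1 to 3. Its log2 fold change was 0.76 ± 0.20 (SE, adjusted p = 0.129 by edgeR). MYBL2, which joins MuvB in S phase and prepares the way for FOXM1 (chr20:43667019-43716495, plus strand), had 131, 203 and 189 CPM in the controls and 206, 289 and 262 CPM in the knockdowns. Its log2 fold change was 0.54 ± 0.21 (SE, adjusted p = 0.211 by edgeR). In both genes knockdown 1 lay just above the highest control, and knockdowns 2 and 3 stood further off. The mean level of both genes per library, as log2(CPM + 1) relative to the 6 libraries, did not overlap between the groups either. It was -0.63, -0.13 and -0.10 in the controls and -0.03, 0.49 and 0.39 in the knockdowns. From the count columns the other 9 role groups overlapped, but with the reads recovered for control 2 the cyclins, CDK1 and its phosphatases, the spindle checkpoint and the chromosome condensation genes did not overlap either. Scaling by total counts left both genes higher in the knockdown, with 1 of them past an unadjusted p of 0.05.

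Among the 7 genes for cyclins, CDK1 and its phosphatases, 5 were higher and 2 lower in the knockdown, or 3 and 4 under scaling by total counts or without knockdown repeat 3. CCNB1, or cyclin B1, which partners CDK1 at mitotic entry (chr5:69167135-69178245, plus strand), had 195, 277 and 208 CPM in the controls and 440, 453 and 271 CPM in the knockdowns. Knockdowns 1 and 2 were well above every control, and knockdown 3 was just under control 2, so the groups overlapped. The log2 fold change was 0.78 ± 0.23 (SE, adjusted p = 0.144 by edgeR). CDC25A, a phosphatase that acts on CDKs at the start of S phase as well as before mitosis (chr3:48157146-48188417, minus strand), had 21.7, 42.3 and 45.9 CPM in the controls and 47.2, 66.8 and 63.2 CPM in the knockdowns. The groups did not overlap, but knockdown 1 exceeded control 3 by little and control 1 stood below the rest. Its log2 fold change was 0.69 ± 0.28 (SE, adjusted p = 0.228 by edgeR).

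The other cyclins and phosphatases were closer to 0. CDC25B, which acts early in mitotic entry, had 365, 344 and 331 CPM in the controls and 309, 340 and 413 CPM in the knockdowns, with overlapping groups and a log2 fold change of 0.03 ± 0.15 (SE). CDC25C, the third phosphatase, had a log2 fold change of -0.18. CCNA2, or cyclin A2, gave 0.44 and CCNB2, or cyclin B2, gave 0.05. CDK1 itself gave -0.25, and its 95% interval from -0.65 to 0.15 excludes a doubling or a halving. The catalytic subunit and its partner CCNB1 therefore had log2 fold changes of opposite sign, and that contrast was not tested.

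The 5 mitotic kinases other than CDK1 gave log2 fold changes between -0.23 and 0.30. PLK1, which triggers mitotic entry and centrosome maturation, had 125, 154 and 141 CPM in the controls and 143, 205 and 168 CPM in the knockdowns. Control 2 lay above knockdown 1, and the log2 fold change was 0.30 ± 0.17 (SE, adjusted p = 0.382 by edgeR). AURKB, the kinase that corrects faulty attachments, had 94.6, 139 and 141 CPM in the controls and 118, 161 and 132 CPM in the knockdowns, with overlapping groups and a log2 fold change of 0.14. TTK, which starts checkpoint signalling at unattached kinetochores (chr6:80003887-80042527, plus strand), had 30.7, 34.3 and 29.5 CPM in the controls and 23.6, 28.6 and 28.1 CPM in the knockdowns. Every knockdown library was below every control, with control 3 and knockdown 2 close, but the groups overlapped with the reads recovered for control 2 and with no filter on low counts, and its log2 fold change of -0.23 ± 0.16 (SE) had an adjusted p of 0.443 by edgeR. AURKA gave 0.14 and BUB1 gave -0.15.

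The spindle checkpoint genes MAD2L1, BUB1B and BUB3 all had positive log2 fold changes, although scaling by total counts turned BUB3 to -0.0025. MAD2L1, the protein that captures CDC20 (chr4:120055623-120066858, minus strand), had 41.2, 53.8 and 38.7 CPM in the controls and 54.5, 60.3 and 53.9 CPM in the knockdowns. The groups did not overlap, with knockdown 3 just above control 2, and the log2 fold change was 0.33 ± 0.17 (SE, adjusted p = 0.310 by edgeR). BUB1B, which forms the checkpoint complex with MAD2L1, had 48.7, 64.0 and 53.7 CPM in the controls and 55.0, 73.9 and 77.1 CPM in the knockdowns, with a log2 fold change of 0.31 ± 0.18 (SE). BUB3, which docks these proteins on kinetochores, had 181, 190 and 194 CPM in the controls and 205, 191 and 195 CPM in the knockdowns, and its log2 fold change of 0.07 ± 0.13 (SE) had the smallest SE of the list.

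Of the 5 genes for the APC/C activator, its substrates and separase, UBE2C had the log2 fold change farthest from 0. UBE2C, the ubiquitin-conjugating enzyme of the APC/C (chr20:45812576-45816957, plus strand), had 180, 185 and 133 CPM in the controls and 122, 141 and 95.3 CPM in the knockdowns. Control 3 fell between knockdowns 1 and 2, so the groups overlapped, and the log2 fold change was -0.47 ± 0.20 (SE, adjusted p = 0.237 by edgeR). CDC20, the activator that the checkpoint holds back, had 187, 214 and 153 CPM in the controls and 154, 229 and 185 CPM in the knockdowns, with a log2 fold change of 0.04. ESPL1, or separase, gave 0.40 ± 0.18 (SE, adjusted p = 0.275 by edgeR), and PTTG1, the securin that inhibits it, gave -0.22. CDCA3, a substrate of the APC/C, gave 0.04.

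In the centromere and kinetochore group, 4 genes were higher and 3 lower in the knockdown, and none passed an unadjusted p of 0.05. Under scaling by total counts or without control repeat 1 the split was 3 and 4. Without control repeat 1, 1 gene passed, lower in the knockdown, and with the recovered reads 1 passed, SPC25. In those settings 11.2% and 20.4% of all genes passed. CENPF, a large protein of the outer kinetochore, had 105, 161 and 169 CPM in the controls and 143, 169 and 229 CPM in the knockdowns. Controls 2 and 3 lay above knockdown 1, and the log2 fold change was 0.31 ± 0.24 (SE, adjusted p = 0.497 by edgeR). The 4 genes of the NDC80 complex, which grips the microtubule, were measured apart: NDC80 at -0.07, NUF2 at 0.04, SPC24 at 0.13 and SPC25 at 0.28. NUF2 had 30.5, 38.5 and 29.8 CPM in the controls and 39.2, 35.4 and 26.9 CPM in the knockdowns, with knockdown 3 the lowest of all 6 libraries. CENPA, the histone variant that marks the centromere, gave -0.36 ± 0.20 (SE, adjusted p = 0.346 by edgeR), and CENPE, a kinetochore motor, gave -0.09.

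The chromosomal passenger complex holds AURKB on INCENP together with BIRC5, or survivin, and CDCA8, or borealin. INCENP, the scaffold, had 179, 211 and 123 CPM in the controls and 168, 226 and 214 CPM in the knockdowns, so that control 3 alone stood below the rest. The log2 fold change was 0.25 ± 0.22 (SE). BIRC5 had 103, 121 and 121 CPM in the controls and 91.3, 122 and 188 CPM in the knockdowns, with knockdown 1 the lowest and knockdown 3 the highest of the 6, and a log2 fold change of 0.21 ± 0.25 (SE). CDCA8 gave -0.08.

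The 7 mitotic kinesins were split between 3 higher and 4 lower in the knockdown, and scaling by total counts gave 3 and 4 too. Without control repeat 2, without knockdown repeat 1 or with the recovered reads 5 of the 7 were higher. KIF2C, which shortens microtubules to free wrong attachments, had 97.6, 114 and 75.1 CPM in the controls and 75.0, 87.1 and 105 CPM in the knockdowns, with a log2 fold change of -0.10. KIF4A, a motor on chromosome arms, had 89.2, 88.2 and 69.9 CPM in the controls and 83.8, 84.6 and 99.2 CPM in the knockdowns, with a log2 fold change of 0.11. In both genes the groups overlapped. KIF11, which pushes the spindle poles apart, gave 0.28, and KIF20A and KIF23, which work in the central spindle, gave 0.26 and -0.10. KIF18A, which limits chromosome movement, gave -0.04, and KIF14, needed late in cytokinesis, gave -0.28.

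Of the 6 genes for spindle assembly and cytokinesis, 5 were higher in the knockdown but 2 under scaling by total counts, and their median was 0.04 on the log2 scale. Without control repeat 3 or knockdown repeat 3, 1 of the 6 was higher, with medians of -0.10 and -0.08, whereas all 6 were higher with the recovered reads, with a median of 0.28, so the direction of this group rested on single libraries. TPX2, the activator of AURKA on the spindle, had 240, 275 and 176 CPM in the controls and 197, 249 and 324 CPM in the knockdowns, with a log2 fold change of 0.16 ± 0.23 (SE). ECT2, the exchange factor that switches on RhoA at the cell's equator, had 82.3, 101 and 110 CPM in the controls and 106, 122 and 137 CPM in the knockdowns. Control 3 alone reached into the knockdown range, and the log2 fold change was 0.32 ± 0.17 (SE, adjusted p = 0.333 by edgeR). HMMR, DLGAP5 and PRC1, which bind spindle microtubules, gave 0.03, 0.0037 and 0.04, and ANLN, a scaffold of the contractile ring, gave -0.14.

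In the chromosome condensation group, 6 of 7 genes were higher in the knockdown, or 5 of 7 under scaling by total counts. SMC2, an ATPase in the core of condensin (chr9:104094260-104141419, plus strand), had 57.1, 71.9 and 57.7 CPM in the controls and 73.7, 88.1 and 112 CPM in the knockdowns. The groups did not overlap, with knockdown 1 close to control 2, and the log2 fold change was 0.55 ± 0.19 (SE, adjusted p = 0.176 by edgeR). Its partner SMC4 had 76.4, 90.0 and 84.8 CPM in the controls and 72.1, 75.5 and 96.7 CPM in the knockdowns, with a log2 fold change of -0.04. The condensin subunits NCAPG, NCAPH and NCAPD2 gave 0.31, 0.18 and 0.17. NCAPD2 had 342, 359 and 235 CPM in the controls and 289, 336 and 425 CPM in the knockdowns, with control 3 the lowest and knockdown 3 the highest. TOP2A, the topoisomerase that untangles chromatids, had 350, 448 and 251 CPM in the controls and 298, 326 and 438 CPM in the knockdowns, and its log2 fold change was 0.02 ± 0.24 (SE). The spread among the 3 controls of TOP2A thus exceeded the difference between the groups. MKI67, which coats mitotic chromosomes and is used as a proliferation marker, gave 0.45 ± 0.23 (SE, adjusted p = 0.327 by edgeR).

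**Figure D2:**
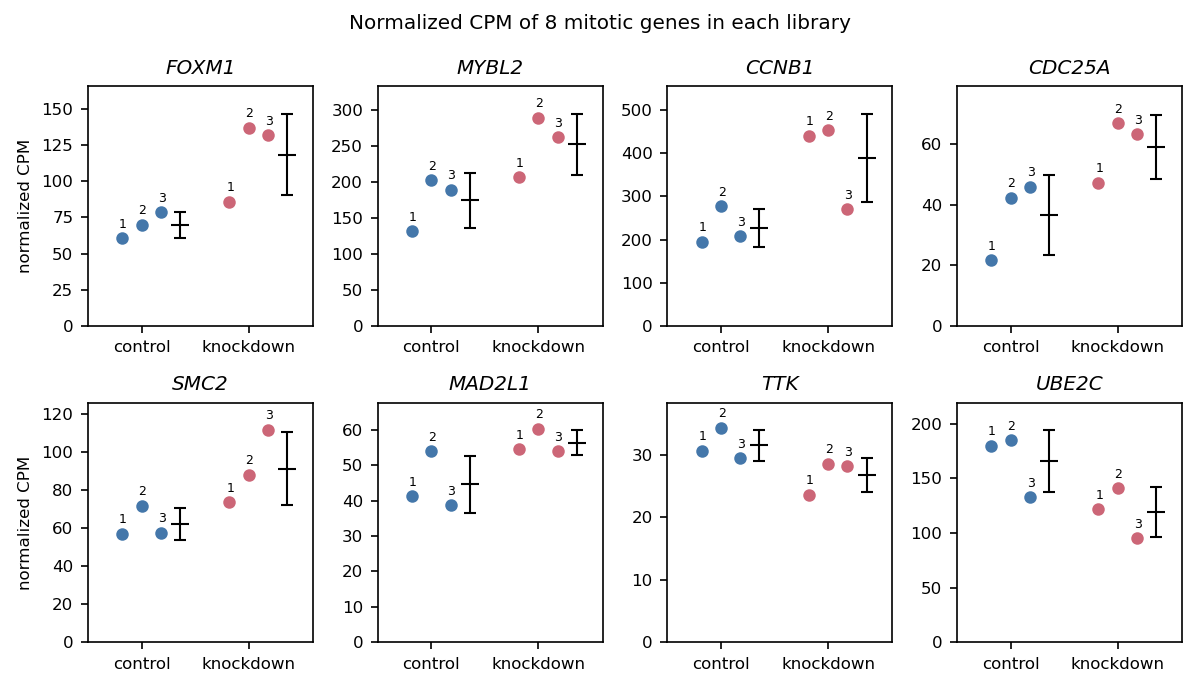
Normalized CPM (y axis, from 0) of 8 mitotic genes in the 3 control (blue) and 3 knockdown (red) libraries, numbered by repeat, with the mean as a bar and the SD as whiskers. FOXM1, MYBL2, CDC25A, SMC2 and MAD2L1 have all knockdown points above all control points, TTK all below, and CCNB1 and UBE2C overlap, whereas under total counts only FOXM1 of these stays above, and TTK and UBE2C lie below.

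The groups did not overlap for 6 of the 52 genes (11.5%), against 24.8% of all genes tested. In 5 of them (CDC25A, MAD2L1, SMC2, FOXM1 and MYBL2) the knockdown was higher, against 12.5% of all genes, and in 1 (TTK) it was lower, against 12.4%. Scaling by total counts turned this split, with 1 gene higher (FOXM1) and 3 lower (TTK, UBE2C and CDC25C) of 4 without overlap, against 24.6% of all genes. The repeats of a group varied. Over the 52 genes, the median coefficient of variation was 17.5% in the control and 15.6% in the knockdown, against 14.3% and 12.9% for the 8542 genes in the same CPM range. Control 2 was the highest of the 6 libraries for 14 genes and the lowest for 0, whereas control 1 was the lowest for 19 and control 3 for 17. Knockdowns 2 and 3 were each the highest for 16 genes. The mean level of the 52 genes, as log2(CPM + 1) relative to the 6 libraries, was -0.19, 0.21 and -0.11 in controls 1 to 3 and -0.12, 0.09 and 0.12 in knockdowns 1 to 3. Control 2 was above every knockdown and knockdown 1 was among the controls. The group means of -0.03 ± 0.21 and 0.03 ± 0.13 (SD, n = 3 each) differed by less than the spread between repeats.

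These values depended on which column was used for control 2. With the reads recovered from its FPKM column in place of the counts, 44 of the 52 genes (84.6%) were higher in the knockdown and the median log2 fold change was 0.23. At an unadjusted p under 0.05, 13 genes passed (25.0%), all of them higher in the knockdown, against 9.81% of the 15190 genes tested in that direction. CCNB1 stood at a log2 fold change of 0.98, from 0.78 with the count column, and its groups no longer overlapped. CCNA2 stood at 0.70 (from 0.44), ESPL1 at 0.60 (from 0.40), MKI67 at 0.65 (from 0.45), NCAPG at 0.55 (from 0.31) and SMC2 at 0.69 (from 0.55), each without overlap. INCENP stood at 0.56 (from 0.25) with groups that overlapped. The other 6 were BUB1B, MAD2L1, SPC25, KIF20A, FOXM1 and MYBL2, at 0.42, 0.47, 0.42, 0.42, 0.68 and 0.56. None was a DEG by edgeR, with 0.0964 the lowest adjusted p, for CCNB1 and ESPL1. The groups did not overlap for 15 genes, all higher in the knockdown, against 13.7% of all genes in that direction and 27.9% in either. UBE2C then gave -0.31 and TTK -0.11, and neither passed. The mean level of the 52 genes became -0.13, -0.08 and -0.05 in the controls and -0.06, 0.14 and 0.17 in the knockdowns, with knockdown 1 between the controls. Leaving control 2 out altogether gave a median of 0.21, with 39 of 52 higher, 10 past an unadjusted p of 0.05, where 13.6% of all genes passed, and 17 without overlap, where 32.0% of all genes did not overlap. The recovered reads lie close to another control library: the mean chi-square per gene between them and the counts of control 3 was 2.47, against 19.3, 61.7 and 93.0 between the count columns of the 3 control pairs. The fit with the recovered reads counted them and control 3 as separate repeats. Its p-values, SEs and counts without overlap may therefore rest on fewer than 3 distinct controls. Which column belongs to the sample cannot be told from the files.

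**Figure D3:**
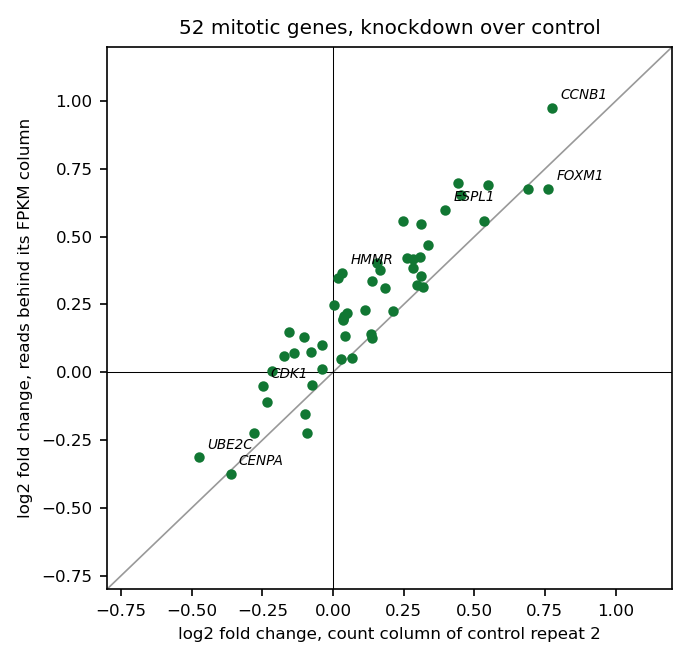
Log2 fold change of each of the 52 mitotic genes with the count column of control repeat 2 (x axis) and with the reads recovered from its FPKM column (y axis), with the line of equality in grey. Most points lie above the line, and the median moves from 0.09 to 0.23.

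Other mitotic genes, 66 in a list of kinetochore, centromere, spindle and entry genes outside the 52, had values of the same kind. Of these, 41 were higher in the knockdown (62.1%, against 46.6% of all genes), or 34 under scaling by total counts. At an unadjusted p under 0.05, 10 passed (15.2%, against 19.2% of all genes), 8 of them higher and 2 lower, and none was a DEG by edgeR. Under total counts 7 passed, 2 of them higher and 5 lower, so the balance turned, and 2 passed without control repeat 1 or without knockdown repeat 2, where 11.2% and 10.8% of all genes passed. The median log2 fold change was 0.08. It was 0.02 without control repeat 1, 0.19 without control repeat 2, 0.17 without knockdown repeat 1 and 0.01 under total counts. With the recovered reads it was 0.18, with 50 of the 66 higher, 13 past an unadjusted p of 0.05 and 20 without overlap, 16 of them higher, where 20.4% and 27.9% of all genes did so. CENPN, which reads the CENPA nucleosome, had 44.9, 46.3 and 42.7 CPM in the controls and 60.0, 77.3 and 80.0 CPM in the knockdowns, with a log2 fold change of 0.70 ± 0.16 (SE, adjusted p = 0.113 by edgeR). CENPO of the inner kinetochore gave 0.50 and ZWINT, which recruits checkpoint proteins, gave 0.55, both with groups that did not overlap.

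All 12 cohesin genes, for the ring that holds sister chromatids together and its loaders and regulators, were higher in the knockdown, against 46.6% of all genes. Under scaling by total counts 11 of 12 were higher. Their median log2 fold change was 0.30, and none was a DEG by edgeR. At an unadjusted p under 0.05, 3 passed (25%, against 19.2% of all genes), all higher, a direction in which 8.74% of all genes passed. With the recovered reads 7 of the 12 passed and 8 did not overlap, from 3 and 5, where 20.4% and 27.9% of all genes did. STAG1, a subunit of the ring, had 12.7, 14.6 and 11.8 CPM in the controls and 19.0, 25.2 and 21.0 CPM in the knockdowns, a log2 fold change of 0.74 ± 0.19 (SE, adjusted p = 0.126 by edgeR). SMC1A gave 0.52 and CDCA5, or sororin, gave 0.54. Of the 17 APC/C subunits and regulators, 11 were higher (64.7%, against 46.6% of all genes), or 10 under scaling by total counts. ANAPC1 at 0.56 ± 0.16 (SE, adjusted p = 0.141 by edgeR) was the 1 past an unadjusted p of 0.05 (5.88%, against 19.2% of all genes). Without control repeat 3, 3 of 17 passed. ANAPC10 gave -0.28 and ANAPC13 gave 0.21. Among the 21 MuvB, NF-Y and E2F factors, 18 were higher (85.7%, against 46.6% of all genes), also under scaling by total counts. At an unadjusted p under 0.05, 6 passed (28.6%), all higher, against 8.74% of all genes in that direction. Under total counts 3 passed, of which 2 were higher, and when each library was left out between 2 and 10 passed, with 2 without control repeat 1, control repeat 2, knockdown repeat 1 or knockdown repeat 2 and 10 without control repeat 3. The share of all genes moved too, at 11.2%, 13.6%, 15.8% and 10.8% in those 4 settings and 29.6% without control repeat 3, from 19.2% with every library. The 3 smallest p-values were those of TFDP1 at 0.59, LIN9 at 0.59 and RBBP4 at 0.42.

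The replication genes of G1/S were set beside the mitotic genes as the preceding wave of the cell cycle. All 20 were higher in the knockdown, against 46.6% of all genes, also under scaling by total counts, with a median log2 fold change of 0.60. With the recovered reads 19 of 20 were higher. At an unadjusted p under 0.05, 12 of the 20 passed (60%), all higher, against 8.74% of all genes in that direction, and none was a DEG by edgeR. The count was 9 under total counts, 8 without control repeat 1 and 7 without knockdown repeat 2, where 18.9%, 11.2% and 10.8% of all genes passed, and the median was 0.40 without control repeat 1. MCM2, a subunit of the replicative helicase, had 193, 273 and 291 CPM in the controls and 467, 626 and 570 CPM in the knockdowns, a log2 fold change of 1.14 ± 0.20 (SE, adjusted p = 0.111 by edgeR). PCNA, the sliding clamp of the fork, had 143, 254 and 389 CPM in the controls and 407, 523 and 407 CPM in the knockdowns, a log2 fold change of 0.77 ± 0.32 (SE, adjusted p = 0.238 by edgeR). The mean level of the 20 genes was -0.60, -0.10 and -0.04 in the controls and 0.19, 0.37 and 0.17 in the knockdowns. In the count columns control 2 lay between the other controls for replication and above them for the mitotic genes. With its recovered reads it lay between the other controls for the mitotic genes and level with control 3 for replication, at -0.0466 beside -0.0471. The difference between the sets was not tested.

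**Figure D4:**
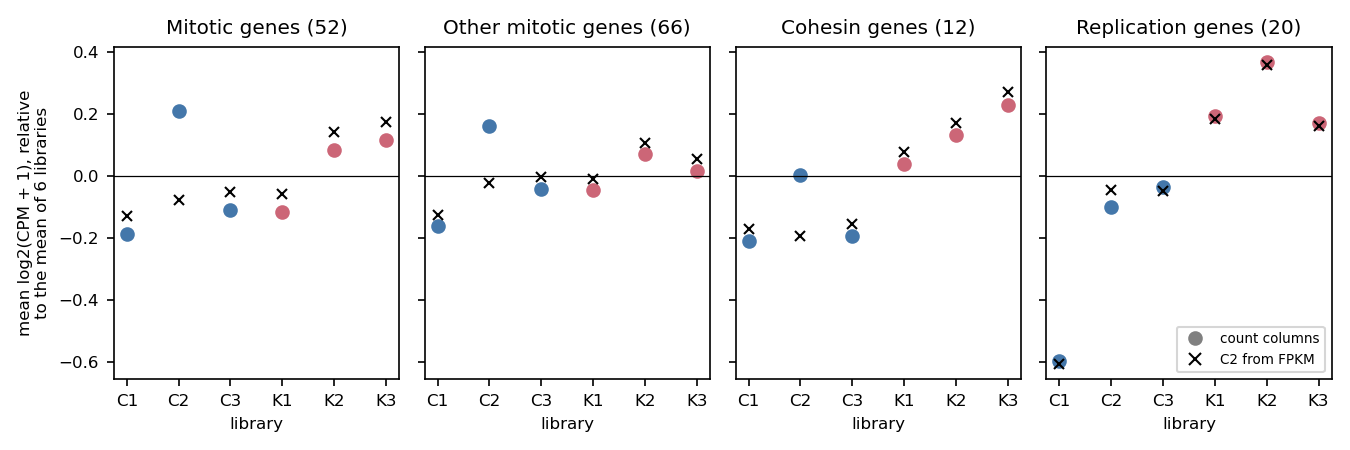
Mean log2(CPM + 1) relative to the 6 libraries (y axis) in controls 1 to 3 (C, blue) and knockdowns 1 to 3 (K, red) for 4 lists, with crosses for the same values when control 2 is taken from its FPKM column. The mitotic genes overlap between the groups, with control 2 at 0.21 from its counts and -0.08 from its FPKM column, and the cohesin and replication genes do not.

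Within the mitotic genes, the 31 with the CHR letters TTTGAA in their promoter had a median log2 fold change of 0.04 and the 14 without these letters 0.14. The 33 with an NF-Y box had a median of 0.13 and the 12 without it -0.0055. The 5 with the E2F letters, CDK1, CDC25A, ESPL1, CENPA and NCAPG, had a median of 0.31 and a range from -0.36 for CENPA to 0.69 for CDC25A, and the 40 without them had a median of 0.05. Among the replication genes, the 11 with the E2F letters had a median of 0.61 and the 5 without them 0.27. These medians are given without a test.

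Other gene lists also differed between the groups. All 10 hypoxia genes were lower in the knockdown, 7 of them at an unadjusted p under 0.05, against 10.4% of all genes in that direction, and the median log2 fold change was -1.26. With the replicate number as a block or with the recovered reads 5 passed, and without control repeat 1, 1 of the 10 was higher and the median was -0.80. Their mean level was 1.55, 0.84 and -0.27 in controls 1 to 3 and -0.68, -0.90 and -0.54 in knockdowns 1 to 3. With the recovered reads control 2 stood at -0.13 on that scale. Of 10 gut and liver genes 5 passed the filter on low counts, of which 4 were higher in the knockdown, and their mean level was between -0.45 and 0.01 in the controls and between 0.06 and 0.27 in the knockdowns. The part of either list in the values of the mitotic genes was not tested.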

How the data were processed

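RNA-seq was deposited for 3 control and 3 Smyca shRNA #1 libraries, described as biological repeats, so p-values measure the spread between these samples. The authors removed rRNA, made strand-specific libraries, mapped paired reads to GRCh38 (hg38) with TopHat 2.0.12 and counted them with HTSeq. The strand setting and annotation are not given in the sources used here. The deposited values are raw read counts per gene and FPKM, which the authors derived from counts, gene length and library total. Symbols came from GENCODE v44 for 57532 of 58302 genes. Counts were tested in R 4.3.3 with edgeR 4.0.16 (TMM, filterByExpr, quasi-likelihood test, Benjamini-Hochberg adjustment over all genes tested). The biological coefficient of variation was 25.2%. CPM were computed from counts with TMM library sizes. Per-library levels used a pseudocount of 1. The code was tested on simulated data. FPKM was used in control repeat 2 to recover whole reads: all of 12859 values below 100 reads came out whole within 0.05. The authors' DESeq was not used, and DESeq2 1.42.0 was an alternative. Other alternatives were RLE factors, total counts, 2 other filters, the repeat number as a block, each library left out, other thresholds and the recovered reads. Values of each library were given for genes without overlap or with an unadjusted p under 0.05, and for the 2 highest CPM of each role. Of the other mitotic, cohesin, APC/C and MuvB and E2F lists, the 3 smallest p-values were named, and of the replication genes MCM2 and PCNA. The mitotic genes and all lists were chosen with earlier results of these data known. With 3 against 3 an exact permutation test cannot go below p = 0.1, so none was run.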

Additional observations from a re-analysis of the deposited data

How the results depend on the processing

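The count of 0 DEGs among the 52 mitotic genes became 2 with no filter on low counts and 2 with DESeq2, where 916 and 836 genes were called in all. It was 0 to 1 when each library was left out, the 1 being FOXM1 without control repeat 3 (adjusted p = 0.0430 by edgeR), where 1628 of 15449 genes (10.5%) were DEGs. The 6 genes past an unadjusted p of 0.05 became 4 (3 of them higher) under total counts, 9 with no filter and 13 with the reads recovered for control repeat 2, where 18.9%, 13.2% and 20.4% of all genes passed, and 2 to 10 when each library was left out: 3 without control repeat 1, 10 without control repeat 2 and 2 without knockdown repeat 3, where 11.2%, 13.6% and 19.1% of all genes passed. The 6 genes without overlap became 4 under total counts (1 higher and 3 lower, from 5 and 1) and 15 with the recovered reads, and 7 to 21 when each library was left out, with 17 without control repeat 2, 12 without control repeat 3 and 21 without knockdown repeat 1, where 32.0%, 49.2% and 34.9% of all genes did not overlap. The median log2 fold change of 0.09 stayed between 0.02 and 0.23 in each of these settings, with 0.04 to 0.21 when each library was left out. Repeats of the same number deviated together at r = 0.066, 0.083 and -0.012, and repeats of different number at -0.18 to 0.082. These values showed no pairing by number, and a batch shared by number was not tested. With the replicate number as a block, 0 genes were DEGs, 7 passed an unadjusted p of 0.05 (17.0% of all genes), 6 did not overlap and the median was 0.10. Some log2 fold changes, between -0.22 (PTTG1) and 0.21 (BIRC5), changed sign in some settings, and the cause was not tested. Under total counts this was so for CCNB2 (-0.026), CDC25B (-0.042), BUB3 (-0.0025), CDC20 (-0.037), CDCA3 (-0.034), NUF2 (-0.032), HMMR (-0.042), DLGAP5 (-0.072), PRC1 (-0.031) and TOP2A (-0.055), and with at least 10 counts in every library for DLGAP5 (-0.015) and TOP2A (-0.0003023). With the recovered reads it was so for CDC25C (0.062), BUB1 (0.15), PTTG1 (0.0063), CDCA8 (0.076), KIF18A (0.10), KIF2C (0.13), ANLN (0.072) and SMC4 (0.011). When each library was left out, the range crossed 0 for AURKB (-0.029 to 0.24), BIRC5 (-0.10 to 0.43), CCNB2 (-0.014 to 0.18), CDC20 (-0.12 to 0.17), CDC25B (-0.087 to 0.13), CDCA3 (-0.16 to 0.20), CDCA8 (-0.19 to 0.023), CENPE (-0.27 to 0.082), DLGAP5 (-0.13 to 0.18), HMMR (-0.19 to 0.32), KIF18A (-0.18 to 0.070), KIF23 (-0.27 to 0.044), KIF2C (-0.25 to 0.050), NUF2 (-0.075 to 0.19), PRC1 (-0.081 to 0.17), SMC4 (-0.17 to 0.048), TOP2A (-0.17 to 0.24) and TPX2 (-0.037 to 0.32). Each of the 52 genes had 176 or more counts in every library, and the part of counting error in the width of the intervals was not tested.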
